A study of Mus musculus with 13 samples.

Results

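Mouse macrophages that received IL-4 together with IFNγ for 4 h were compared with macrophages that received IFNγ alone for 4 h, by the H3K27ac signal over their genome. Both were primary bone marrow-derived macrophages of C57BL/6 mice on day 7 of differentiation, grown in medium conditioned by L929 cells, a source of the macrophage growth factor CSF1. One group had IFNγ at 100 ng/ml and IL-4 at 10 ng/ml, and the other had IFNγ at 100 ng/ml with no IL-4. Each group was 1 library, so no difference has a replicate check, and how many mice or cultures stand behind a library is not given in the sources used here. Further libraries of the series are used where named: the same pair at 2 h, IL-4 (10 ng/ml) for 2 h and 4 h, untreated cells, and cells with a scramble shRNA that were untreated or had IFNγ (100 ng/ml) for 4 h. The members are the genomic regions formed by merging the called islands of the 2 libraries wherever they overlapped by at least 1 bp. This gave 35720 regions, against 39569 when the islands of all 13 libraries of the series were merged.

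H3K27ac, acetylation of lysine 27 on histone H3, marks active promoters and enhancers, and its spread over a gene usually goes along with transcription. IFNγ signals through JAK kinases and IRF1 and arms macrophages against microbes, with nitric oxide synthase, chemokines, interferon-stimulated GTPases and antigen presentation. IL-4 signals through STAT6 and drives the alternative program, with arginase, lectin receptors and lipid metabolism, and the combination asks how macrophages read opposing cues at once. In bulk chromatin, a change in the share of cells that carry the mark and a change in the mark per cell cannot be told apart.

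The promoters of 6 genes are shown first, because the islands over their start sites or the motifs in them bear on the genes described below. Each is the RefSeq sequence on GRCm38.p6 from 250 bases before the start site to 50 after it, read 5′ to 3′ on the gene's strand, with motif matches in capitals. Motifs were searched on both strands as the STAT6 site TTC and GAA with 4 bases between, the interferon-γ-activated (GAS) site TTCNNNGAA, the interferon element of a pair of TTTC with 2 bases between, the AP-1 site TGANTCA, the NF-κB site GGG and TTTCC with 2 bases between, and the sterol element TCACCCCAC. Tmem26 (chr10:68723496-68723795, plus strand), an IL-4 marker gene, and Ptgs1 (chr2:36230176-36230475, plus strand), the gene of cyclooxygenase 1, had an island over the start site in cells with both cytokines and none in cells with IFNγ. Hmgcs1 (chr13:119690101-119690400, plus strand), an early enzyme of cholesterol synthesis, had one in both libraries. Cxcl2 (chr5:90903649-90903948, plus strand), a neutrophil chemokine gene, Fpr2 (chr17:17887574-17887873, plus strand), a formyl peptide receptor gene, and Cx3cr1 (chr9:120068247-120068546, minus strand), a chemokine receptor gene, had an island over the start site with IFNγ and none with both cytokines.
Tmem26: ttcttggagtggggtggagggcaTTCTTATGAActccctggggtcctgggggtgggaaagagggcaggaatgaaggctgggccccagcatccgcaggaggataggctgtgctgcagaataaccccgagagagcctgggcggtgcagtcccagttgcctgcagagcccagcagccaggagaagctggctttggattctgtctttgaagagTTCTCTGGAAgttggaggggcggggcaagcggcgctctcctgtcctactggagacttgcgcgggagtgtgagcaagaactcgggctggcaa
Ptgs1: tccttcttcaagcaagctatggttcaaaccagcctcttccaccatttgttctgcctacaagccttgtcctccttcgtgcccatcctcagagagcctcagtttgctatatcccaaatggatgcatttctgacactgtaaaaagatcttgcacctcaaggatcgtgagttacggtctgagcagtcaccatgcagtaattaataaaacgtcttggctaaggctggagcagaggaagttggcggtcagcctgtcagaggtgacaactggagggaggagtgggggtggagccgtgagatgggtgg
Hmgcs1: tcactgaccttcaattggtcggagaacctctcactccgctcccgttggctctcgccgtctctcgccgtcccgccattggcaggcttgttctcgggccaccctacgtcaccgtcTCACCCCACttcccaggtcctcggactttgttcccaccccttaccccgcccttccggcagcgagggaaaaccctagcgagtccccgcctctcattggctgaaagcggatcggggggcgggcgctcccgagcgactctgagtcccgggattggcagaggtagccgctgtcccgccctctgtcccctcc
Cxcl2: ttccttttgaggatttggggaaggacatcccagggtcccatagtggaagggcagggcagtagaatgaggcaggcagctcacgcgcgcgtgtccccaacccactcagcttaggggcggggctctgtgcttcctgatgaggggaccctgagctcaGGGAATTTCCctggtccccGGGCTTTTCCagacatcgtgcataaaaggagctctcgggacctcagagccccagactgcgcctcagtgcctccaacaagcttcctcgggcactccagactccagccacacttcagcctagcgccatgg
Fpr2: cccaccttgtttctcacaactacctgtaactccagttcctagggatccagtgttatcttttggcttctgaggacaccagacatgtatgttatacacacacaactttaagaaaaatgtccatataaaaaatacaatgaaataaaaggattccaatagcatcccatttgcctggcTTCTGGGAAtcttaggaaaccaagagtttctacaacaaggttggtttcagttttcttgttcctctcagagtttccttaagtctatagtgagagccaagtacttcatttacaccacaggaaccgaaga
Cx3cr1: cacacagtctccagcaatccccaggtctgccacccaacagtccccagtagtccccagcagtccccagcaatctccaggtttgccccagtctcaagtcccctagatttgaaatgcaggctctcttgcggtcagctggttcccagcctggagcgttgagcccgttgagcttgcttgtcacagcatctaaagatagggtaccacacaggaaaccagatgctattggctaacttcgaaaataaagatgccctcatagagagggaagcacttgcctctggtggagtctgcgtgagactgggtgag
In Tmem26 the capitals are matches to the STAT6 site, which begin 227 and 41 bases before the start site. Hmgcs1 holds 1 sterol element, which begins 137 bases before the start site. Cxcl2 holds matches to the NF-κB site that begin 97 and 78 bases before it, and Fpr2 a GAS site that begins 77 bases before it. Ptgs1 and Cx3cr1 hold none of these motifs in this window. A match here is a description of letters. The STAT6 site was found in 5.36% of 672 promoters of genes higher with both cytokines, by the rule given below, in 6.62% of 589 promoters of genes lower, in 5.66% of 10724 promoters of all genes tested, and in 6.37% of all 17491 promoters in the table. The GAS site was in 4.91%, 8.66%, 7.12% and 7.83% of the same groups in that order, the NF-κB site in 1.04%, 2.21%, 1.64% and 1.56%, and the sterol element in 0.744%, 0.509%, 0.532% and 0.509%. The interferon element was in 2.53%, 4.07%, 3.31% and 3.40%, and the AP-1 site in 6.85%, 7.81%, 5.29% and 7.08%.

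The deepest libraries of the series were the pair compared here, with 37.4 M reads for both cytokines and 35.7 M for IFNγ, against 14.3 to 29.5 M in the other libraries. Called islands numbered 32272 with both cytokines and 33705 with IFNγ, covered 205.6 and 200.9 Mb, and held 78.9% and 78.7% of the reads. Read totals, and the shares that rest on them, were computed back from the deposited fold with the smallest control total that fits it. Reads were scaled by size factors of 1.04 and 0.964, the median of ratios over regions with an island in both, and the size rule used below calls higher or lower any region or gene with a ratio of 2-fold or more and a minimum of 50 normalised reads in its higher library. A library with no island in a region was filled with a low value, the 5th percentile over its islands, 62.7 reads with both cytokines and 59.1 with IFNγ, but no fold is printed for a single gene against a library without an island. Not called means that no island passed the authors' threshold and does not mean 0 reads. Each fold below carries an exact (Clopper-Pearson) 95% interval, which covers counting error only.

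The cells carried the marks of macrophages in both libraries. Over 18 macrophage genes the summed reads were 157933 with both cytokines and 165485 with IFNγ. Csf1r, the CSF1 receptor, had 19337 and 17817 reads, Spi1, the macrophage transcription factor PU.1, 18917 and 20046, and Adgre1, which encodes F4/80, 2281 and 2097. 3 members passed the rule, all lower with both cytokines: Cx3cr1, Lyz2, a lysozyme gene (551 and 1794, region shared with Lyz1), and Cybb, a subunit of the phagocyte oxidase (3854 and 9244). Among genes of other cell types, Cd3e and Cd3g of T cells, Pax5 of B cells, Ly6g, Mpo and S100a9 of neutrophils and Col1a1 and Col3a1 of fibroblasts were not called in either library. Other defining genes had islands in both, among them the T cell genes Cd3d (498 reads with both cytokines and 513 with IFNγ) and Lck (1091 and 1447), and the B cell gene Cd79a (1182 and 1236, region shared with Arhgef1). Over the 8 neutrophil genes 4 were measured, with summed reads of 750.1 and 570.4. Among them Cxcr2, a chemokine receptor, had 525 and 143 reads, while Camp (188 reads) and S100a8 (127 reads) were called with IFNγ alone. Over the B cell genes 3 of 6 were measured, with sums of 1845 and 3217, and Ms4a1 was lower with 555 and 1981. T cell genes had 3 of 8 measured (2464 and 3009.8 reads), NK cell genes 2 of 5 (879 and 1715), dendritic cell genes 5 of 6 (23153 and 29517), mast cell and basophil genes 3 of 6 (2675 and 2646), erythroid genes 3 of 5 (581 and 378), and fibroblast genes 1 of 7, which is Pdgfrb in the region of Csf1r. Their part in the results below was not tested.

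Acetylation differed more often at regions away from start sites than at start sites. Of 34966 regions tested, 3859 (11%) were higher and 4537 (13%) lower with both cytokines than with IFNγ, so 24.0% were called in all. Untreated scramble cells and untreated cells of the cytokine experiment, which have no cytokine between them, differed by the same rule in 21.2% of 30301 regions. These untreated libraries also differ in the shRNA and in quality, with 68.6% and 77.5% of reads in islands over 219.9 and 183.4 Mb. The pair compared here had 78.9% and 78.7%, so the untreated pair is not a background of equally matched libraries. The share called with IL-4 is near the 21.2%. With 1 library per condition a difference between libraries and an effect of IL-4 on it cannot be told apart. Of regions that hold a start site 5.42% were higher and 3.64% lower. Regions inside genes without a start site had 12.7% higher and 14.2% lower, and intergenic regions 12.7% higher and 18.1% lower. By length, 7.84% of regions of up to 2400 bp were called and 34.3% of those of 4200 to 7600 bp. Of 25993 tested regions with an island in both libraries 18.3% were called, against 17.5% between the untreated libraries. For scale, the rule called 16.3% of regions when IL-4 was added to IFNγ at 2 h, 34.5% for IL-4 at 4 h and 41.1% for IFNγ at 4 h against untreated cells, and 29.0% for IFNγ at 4 h in scramble cells.

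**Figure D1:**
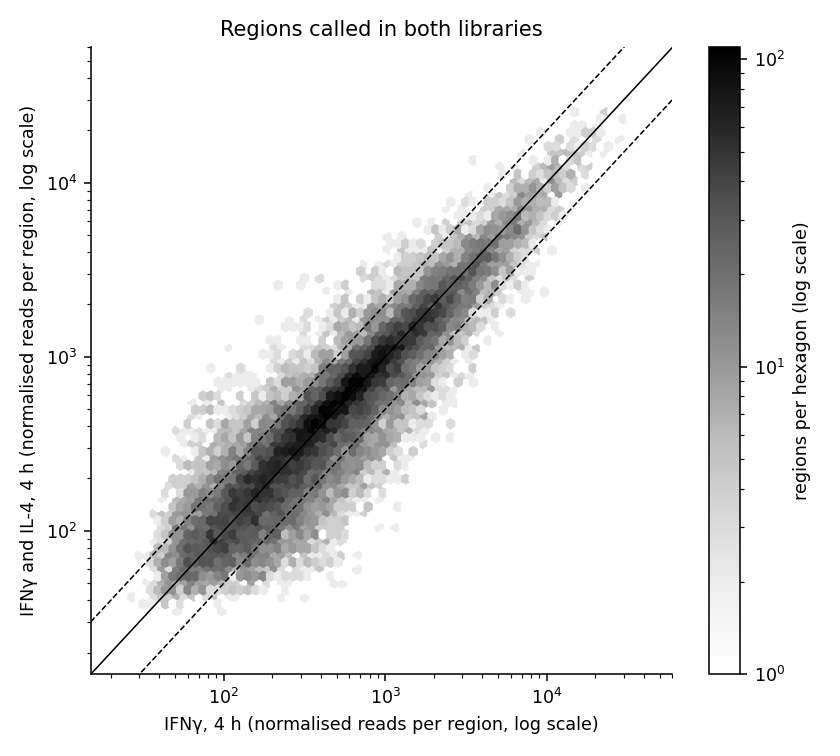
H3K27ac reads of every region called in both libraries, with normalised reads of IFNγ and IL-4 at 4 h on the vertical axis and of IFNγ at 4 h on the horizontal axis, both on a log scale, and shading for the number of regions. The solid line marks equal reads and the dashed lines a 2-fold difference, and 18.3% of the regions tested lie outside them.

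Reads are summed over called islands and called length follows the reads past the authors' threshold, so the lengths of called regions are part of how they were chosen and are given as a description, with 0 kb where a library has no island. Higher regions had a median called length of 5.2 kb with both cytokines and 1.0 kb with IFNγ, and lower regions 1.6 kb with both cytokines and 5.0 kb with IFNγ. Regions within the rule had 3.4 and 3.2 kb. An island in 1 library alone was seen for 4305 regions with both cytokines, of which 1778 passed the rule, and for 5353 with IFNγ, of which 1866 passed. Of the higher regions 53.9% and of the lower regions 58.9% had an island in both libraries. In reads per kb of called length, 283 of 25993 regions with islands in both libraries were higher and 661 lower. Called length and reads per kb are therefore given beside the reads of the main genes below.

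Among protein-coding genes, whose value is the sum over regions that touch the gene or 1 kb either side, 846 of 13303 tested (6.36%) were higher and 764 (5.74%) lower, with a median log2 ratio of 0.07. A region was shared with another gene for 5088 of the 13399 genes with a region (37.97%), and the partners are named below.

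The highest ratio lay at a homeobox gene, and those of a cytokine receptor chain, the eotaxin genes and cyclooxygenase 1 came next. Msx3, a homeobox gene on chromosome 7 (140046601 to 140063200), had 2571.5 normalised reads with both cytokines and 36.3 with IFNγ, 70.8-fold higher (50.8 to 102). The 36.3 reads lie below the 59.1 filled in where IFNγ has no island, so this fold rests on a small island. Its called length was 16.6 and 0.6 kb and its density 155 and 60.5 reads per kb. Il31ra, a chain of the interleukin-31 receptor, had 7459 reads with both cytokines and 191 with IFNγ, 39.1-fold (33.8 to 45.5). At Il31ra the called length was 66.6 and 3.0 kb. Its density was 112 and 63.6 reads per kb, a log2 ratio of 0.82 that does not pass the rule. A single region of chromosome 5 (135532801 to 135580200) touches Ccl24 and Ccl26, eotaxin genes whose products attract eosinophils, and the neighbouring gene Hip1. It had 8470.5 reads with both cytokines and 289 with IFNγ, 29.3-fold (26.0 to 33.1), and its called length was 47.4 kb with both cytokines and 6.6 kb with IFNγ. Its density was 179 and 43.8 reads per kb, so this region was wider and held more reads per kb. Ptgs1 had 6249 reads with both cytokines and 261 with IFNγ, 23.9-fold (21.1 to 27.2). Its density was 137 and 119 reads per kb over 45.6 and 2.2 kb, so the libraries differed at Ptgs1 mostly in called length.

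Farther down were Itgb3, the integrin β3 chain (4618.5 reads with both cytokines and 327 with IFNγ), Mgll, monoacylglycerol lipase (2489.6 and 186, region shared with Abtb1), Plekhf1 (2632 and 214) and Mgl2, a galactose-binding lectin receptor (4527 and 388). Lrrc74b, Ak8, Tas2r137 and Map7 complete the 12 highest, at log2 ratios of 3.90, 3.49, 3.48 and 3.40. Lrrc74b shares its region with P2rx6, Ak8 with Spaca9 and Tas2r137 with Tas2r108. Per kb of called length the ratios of Mgll and Ak8 turned to log2 -0.04 and -0.26. Lrrc74b, Itgb3, Tas2r137 and Map7 stood at 0.37, 0.98, 0.84 and 0.40 per kb, which does not pass the rule. Plekhf1 and Mgl2 stayed past 2-fold per kb, at 1.51 and 1.43. Some genes had an island with both cytokines alone: Slc7a14, a cationic amino acid transporter family gene (2471 reads), Scn3a, a sodium channel gene (1670.0), Ror1, a receptor tyrosine kinase gene (1323), and Ang2 (1117, shared with Ear14). Ang2 depends on the 1 kb either side, since over the gene span alone its log2 ratio was -0.21.

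**Figure D2:**
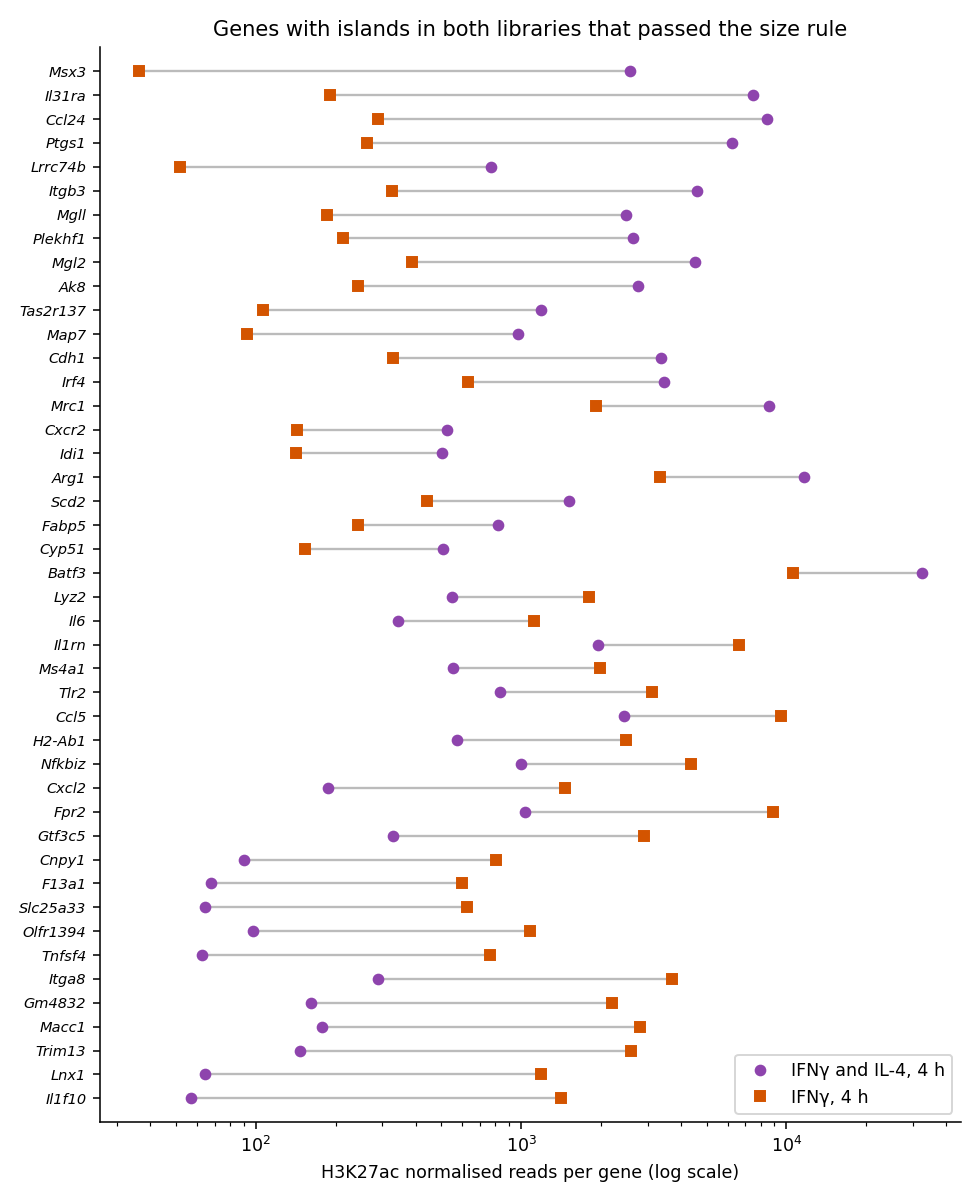
Normalised H3K27ac reads over the 22 highest and 22 lowest of the named genes with islands in both libraries, on a log scale, with circles for IFNγ and IL-4 at 4 h and squares for IFNγ at 4 h. Msx3 stands at 2571.5 and 36.3 reads at the top, and Il1f10 at 56.9 and 1408 at the bottom.

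Genes of alternative activation and of cholesterol synthesis held most of the higher calls among the gene lists. Of 36 measured members of the alternative activation list 17 were higher with both cytokines and 4 lower, with a median log2 ratio of 0.84. Over all genes 6.36% were higher and 5.74% lower, with a median of 0.07, and these shares stand beside every list below. Lists and members were chosen with earlier results of these data known, so the counts of a list are a description and not a test. Arg1, which turns arginine into ornithine, had 11637 reads with both cytokines and 3325 with IFNγ, 3.50-fold higher (3.37 to 3.64), in a region shared with Med23 (chromosome 10, 24892601 to 24935200). Irf4, a transcription factor of alternative activation, had 3463 reads with both cytokines and 633 with IFNγ, 5.47-fold (5.02 to 5.97). Mrc1, the mannose receptor, had 8581 and 1916 reads in a region shared with Tmem236, 4.48-fold (4.26 to 4.71). Pparg, a lipid-sensing nuclear receptor, had 12259.8 and 4448 reads, 2.76-fold (2.66 to 2.85). At Arg1 the density was 273 and 127 reads per kb, at Pparg 187 and 106, at Mrc1 120 and 71.5, and at Irf4 89.7 and 73.6. Called lengths were 71.6 and 26.8 kb at Mrc1 and 38.6 and 8.6 kb at Irf4. Per kb Arg1 passed the rule, at log2 1.11, and Pparg, Mrc1 and Irf4 did not, at 0.82, 0.75 and 0.29.

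The list also held Cdh1, E-cadherin (3373 reads with both cytokines and 330 with IFNγ, log2 3.35), Tmem26 (1280.5 and 139, log2 3.20), Rnase2a, a ribonuclease of the eosinophil type (3134 and 609.8, log2 2.36), and Chil4, a chitinase-like gene (498 reads, not called with IFNγ). Clec10a, another galactose lectin receptor, had 11048 and 3614 reads in a region shared with Slc16a11, Atp6v0d2, a subunit of the proton pump, 9816 and 3255, and Hbegf, a growth factor gene, 2313 and 1108. Egr2, a transcription factor that acts early in alternative activation, was just past the rule with 4091 and 2010.0 reads (log2 1.03, region shared with Ado). Egr2 fell below the rule with a merge over all 13 libraries, per kb of called length or with 10 kb either side of the gene. Cish, a feedback inhibitor of cytokine receptors, had 14367.5 and 6122 reads (log2 1.23, region shared with Hemk1 and 6430571L13Rik) and did not pass under these settings or with a merge across gaps of up to 2000 bp. Matk, a tyrosine kinase gene, had 4452 and 1576 reads in a region shared with Zfr2, Mrpl54 and Apba3, and Ccl24, Ptgs1 and Mgl2, given above, make up the rest of the higher members. The lower members were F13a1, coagulation factor XIII (67.5 and 600.5 reads), Il1rn, the interleukin-1 receptor antagonist (1947 and 6643), Ccl22, a chemokine gene (108 and 285), and Ch25h, which makes 25-hydroxycholesterol (6722 and 16901). With 10 kb either side of the gene Ccl22 turned to a log2 ratio of 0.14. The 67.5 reads of F13a1 lie near the 62.7 filled in where the library with both cytokines has no island. Retnla, Chil3 and Ccl17, markers of alternative activation, had no called region in either library.

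**Figure D3:**
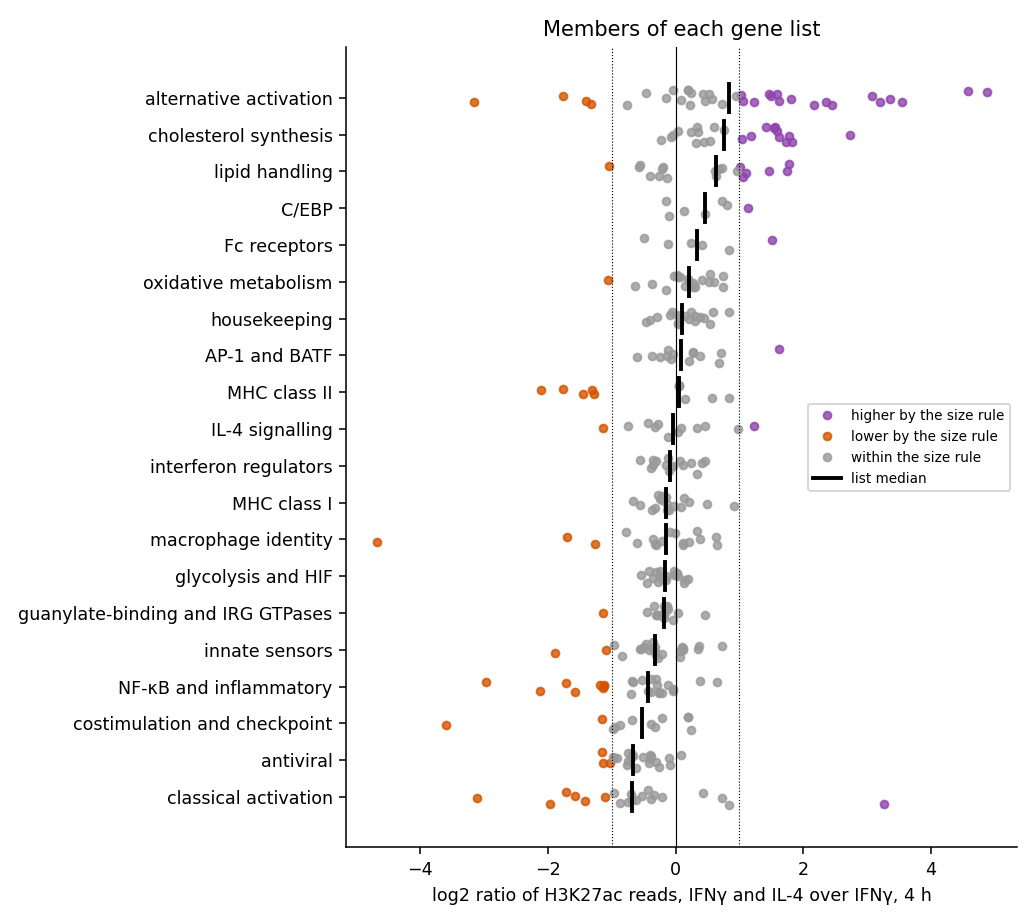
Log2 ratio of H3K27ac reads, IFNγ and IL-4 over IFNγ at 4 h, for each measured member of the gene lists, with a bar at each list's median, purple for members called higher, orange for members called lower and grey for the rest. Alternative activation (median 0.84) and cholesterol synthesis (0.75) lie to the right, and classical activation (-0.68) and antiviral genes (-0.67) to the left.

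Cholesterol synthesis genes had higher members and no lower one. Of 23 measured genes 11 were higher with both cytokines and 0 lower, 20 lay above 0, and the median log2 ratio was 0.75. Hmgcs1, whose promoter with its sterol element is shown above, had 771 reads with both cytokines and 262 with IFNγ, 2.94-fold higher (2.55 to 3.40). Idi1, which isomerises isopentenyl diphosphate, had 504 and 142 reads, 3.55-fold (2.94 to 4.32), and Cyp51, a sterol demethylase, 507 and 153, 3.30-fold (2.75 to 3.99). Hsd17b7, a later enzyme of the pathway, had 203 reads and was not called with IFNγ, and did not pass with control reads subtracted. The 23 genes lie in 23 distinct regions.

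Farther down the list Fdps had 874 reads with both cytokines and 289 with IFNγ, Sqle, the squalene epoxidase, 599 and 206, Lss 744 and 363, and Sc5d 240.1 and 77.8. Srebf2, the transcription factor that drives the pathway, had 2748 and 1025 reads (log2 1.42, region shared with Ccdc134), and Insig1, a sterol-regulated inhibitor of that factor, 1112 and 488. Of the 23 members 12 did not pass the rule. Per kb of called length the list median was 0.10, the lowest of the settings tried, and at Hmgcs1 the density was 110.2 and 109.3 reads per kb over 7.0 and 2.4 kb.

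Lipid handling genes had 6 of 19 members higher and 1 lower, with a median log2 ratio of 0.63. Scd2, a fatty acid desaturase, had 1513 reads with both cytokines and 443 with IFNγ, and Fabp5, a fatty acid binding protein, 815 and 244. Srebf1, the fatty acid counterpart of Srebf2, had 1984 and 954 reads, and Rxra, the partner of many lipid receptors, 5848 and 2726. Scd1 had 119 reads with both cytokines and no island with IFNγ, so its call rests on the filled value. Abca1, the cholesterol exporter, went the other way with 1736 and 3560.5 reads (log2 -1.04), and did not pass with libraries scaled by sequencing depth, with islands required in both libraries or per kb of called length. Of the higher members, Scd2, Fabp5, Rxra and Pparg also did not pass per kb, at log2 0.36, 0.74, 0.18 and 0.82.

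At inflammatory genes the calls were lower with both cytokines, with the exception of Il12a. The NF-κB and inflammatory list had 8 of 25 measured members lower and 0 higher, with 23 below 0 and a median log2 ratio of -0.44. Over all genes 5.74% were lower and the median was 0.07. Classical activation genes had 6 of 21 lower and 1 higher, with a median of -0.68. Fpr2, shown above, had 1031 reads with both cytokines and 8878 with IFNγ in a region shared with Fpr1 (chromosome 17, 17882601 to 17927200), 8.61-fold lower (8.08 to 9.19). Cxcl2 had 187 and 1468 reads, 7.85-fold lower (6.75 to 9.16), with density 55.0 and 129 reads per kb. Nfkbiz, an atypical inhibitor of NF-κB, had 1001 and 4349.7 reads, 4.35-fold lower (4.06 to 4.66). Ccl5, a T cell chemokine gene, had 2442 and 9508 reads in a region shared with Heatr9, 3.89-fold lower (3.73 to 4.07).

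Nos2, the inducible nitric oxide synthase, had 5880 reads with both cytokines and 15793.5 with IFNγ, 2.69-fold lower (2.61 to 2.77). Its called length was 58.8 and 73.6 kb and its density 100.0 and 215 reads per kb, so at Nos2 the reads per kb differed more than the called length. Il6 had 342 and 1122 reads, 3.28-fold lower (2.91 to 3.71), and Il1b 259 and 769.6, 2.97-fold (2.58 to 3.42). Il1b was below the rule with a merge across gaps of up to 2000 bp or over all 13 libraries, per kb of called length or with 10 kb either side. Other members called lower were Cd38, an enzyme that consumes NAD (4119 and 8908 reads, region shared with Bst1), Relb (region shared with Clptm1), Nfkb2, Nfkbie and Il18 (region shared with Bco2 and Tex12), at log2 ratios of -1.14, -1.13, -1.19 and -1.13. Il6 and Il1b are members of both lists. Il12a, a subunit of interleukin-12, had 571 reads with both cytokines and no island with IFNγ, and was 1 of 4 classical activation genes above 0. The other three did not pass the rule: Gpr18, a lipid receptor gene, at log2 0.83 (region shared with Ubac2), Ido1, a tryptophan-degrading enzyme, at 0.73 (shared with Adam18), and Il12rb1, a chain of the interleukin-12 receptor, at 0.43 (shared with Mast3). Below 0 but not called was Il12b, the other subunit (662 and 957 reads, log2 -0.53). Cxcl9 was as well (4790.1 and 8009.8, log2 -0.74, region shared with Sdad1 and Art3). So were Tnf (17086.5 and 27696, log2 -0.70, region shared with 5 other genes) and Cd86, a costimulatory ligand (8141 and 14952, log2 -0.88).

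The lowest ratios over all genes were at less familiar loci. Il1f10, a cytokine gene of the interleukin-1 family, had 56.9 reads with both cytokines and 1408 with IFNγ, 24.8-fold lower (19.1 to 32.7). Lnx1 had 64.6 and 1193 reads, Trim13, a ubiquitin ligase gene, 147 and 2586, and Macc1 178 and 2801. Tnfsf4, which encodes the costimulatory ligand OX40L, had 62.7 and 760.2. The values of Il1f10, Lnx1 and Tnfsf4 with both cytokines lie near the 62.7 reads filled in where that library has no island. Their folds therefore rest on small islands. Gm4832, Itga8, Olfr1394, Slc25a33, Cnpy1 and Gtf3c5 stood at log2 ratios of -3.77, -3.69, -3.47, -3.28, -3.15 and -3.15. Slc25a33 had 64.6 reads with both cytokines, which also lies near the filled value. Gtf3c5 turned to 0.18 per kb of called length. Macc1, Itga8, Tnfsf4 and Slc25a33 stood at -0.89, -0.76, -0.25 and -0.20 per kb, which does not pass the rule. Il1f10, Lnx1, Trim13, Gm4832, Olfr1394 and Cnpy1 stayed past 2-fold per kb, at -2.27, -1.28, -1.52, -1.01, -1.20 and -1.52. Genes with an island under IFNγ alone were Cx3cr1, the fractalkine receptor (1608 reads), Clec4e, a receptor for mycobacterial lipid (1545), Tmc3 (1017) and Musk (954). When islands were merged over all 13 libraries, the log2 ratio of Cx3cr1 was -0.23 and that of Tmc3 -0.95, neither of which passes.

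The lists of interferon-induced GTPases and of interferon regulators held 1 call between them. Guanylate-binding and immunity-related GTPases, which attack vacuoles that hold microbes, had 1 of 16 measured members lower and 0 higher, with a median log2 ratio of -0.18. That member, Gbp10, rests on 40.5 reads with both cytokines and 89.2 with IFNγ. Regulators of the interferon response had 0 of 16 called either way, with a median of -0.09. Irf1, a transcription factor induced early by IFNγ, had 14661 reads with both cytokines and 14035.5 with IFNγ (log2 0.06). Socs1, a feedback inhibitor of JAK kinases, had 40746 and 32173 reads (log2 0.34) in a region shared with 6 other genes. Without replicates, the size of difference that these values would show reliably is not known.

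Antiviral genes lay below 0 in 22 of 23 cases, with a median log2 ratio of -0.67 beside 0.07 over all genes. Only 3 passed the rule. Oasl1, a gene of the oligoadenylate synthetase family, had 3064 reads with both cytokines and 6849 with IFNγ (region shared with Oasl2), Ifi44 345 and 761, and Ddx58, which encodes the RNA sensor RIG-I, 981 and 2000.6. Ddx58 did not pass with libraries scaled by depth, with islands required in both libraries, with islands of a deposited FDR of at most 1e-10 or per kb of called length, and Oasl1 did not with islands merged over all 13 libraries or per kb. Per kb of called length Ifi44 turned to a log2 ratio of 0.03. Among innate sensors 2 of 24 were lower and 0 higher, with a median of -0.32, beside 5.74% lower and 6.36% higher over all genes. Tlr2, a receptor for bacterial lipoproteins, had 835 and 3109 reads over 7.0 and 8.0 kb, 3.72-fold lower (3.45 to 4.02), and Irak3, an inhibitor of Toll-like receptor signalling, 1180.2 and 2502. Irak3 did not pass with islands required in both libraries, merged over all 13 libraries, per kb of called length or with 10 kb either side.

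MHC class II genes held 5 lower members and 0 higher ones of 11 measured, with a median log2 ratio of 0.05. Over all genes 5.74% were lower. H2-Ab1 had 574 reads with both cytokines and 2479 with IFNγ, 4.32-fold lower (3.95 to 4.73), in a region shared with H2-Ob. H2-Eb1 had 487 and 1335 reads, and H2-Aa 735 and 1821. Like H2-Ab1, both encode peptide-binding chains. Per kb of called length H2-Eb1 stood at log2 -0.12, which does not pass the rule. H2-Ab1 and H2-Aa stayed past 2-fold per kb, at -1.05 and -1.06. H2-Oa and H2-Ob encode the chains of DO, which modulates peptide loading. H2-Oa had 263 and 637 reads, and did not pass with islands merged across gaps of up to 2000 bp or over all 13 libraries, per kb of called length or with 10 kb either side. H2-Ob had 1104 and 3739.9 reads summed over its regions, 1 of which is the region of H2-Ab1. The genes of DM, which loads peptides, were not called, with H2-DMa, H2-DMb1 and H2-DMb2 at log2 0.05 each in regions that they share with each other and with Brd2. The master regulator Ciita was at 15634 and 14090.5 reads (log2 0.15), the invariant chain gene Cd74 at 4588 and 3080.3 (log2 0.57, region shared with Tcof1), and Ctss, the protease that trims the invariant chain, at 16029.8 and 8996 (log2 0.83, region shared with Arnt and Ctsk). MHC class I genes had 0 of 18 called either way, with a median of -0.15.

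Of the AP-1 and BATF, C/EBP and Fc receptor lists, 1 member each was called, in each case higher, beside 6.36% of all genes. In lists this short 1 call is not read as a trait of the list. Batf3, a BATF family factor, had 32405 reads with both cytokines and 10577 with IFNγ, 3.06-fold higher (2.997 to 3.13), in a region shared with Tatdn3 and Nsl1 (chromosome 1, 191055201 to 191141400). Its called length was 86.2 and 61.8 kb, with 376 and 171 reads per kb. It was the only one of 14 AP-1 and BATF genes called, a share near the 6.36% of all genes, and Junb had 9303 and 12085 reads (log2 -0.38). Cebpa, a myeloid transcription factor, was the only one of 7 C/EBP genes called, with 2245 and 1026 reads, and Cebpb had 13072 and 14498 (log2 -0.15). Fcgr2b, the inhibitory Fc receptor, was the only one of 6 Fc receptor genes called, with 5197 and 1825 reads, and did not pass with islands merged over all 13 libraries or with 10 kb either side. In the IL-4 pathway Cish was higher and Il13ra1, a receptor chain shared by IL-4 and IL-13, lower with 893 and 1960.2 reads. Stat6 had 8624 and 8415 reads (log2 0.04) and Il4ra 20238 and 19017 (log2 0.09). Costimulation and checkpoint genes lay below 0 in 9 of 12 cases, with a median log2 ratio of -0.53. Tnfsf4 and Tnfsf15 (549 and 1222 reads) were lower by the rule, 2 of 12 beside 5.74% of all genes. Tnfsf15 lost its call under the same 4 settings as H2-Oa. Icosl, the ligand of ICOS, and Tnfsf10, which encodes TRAIL, stood at log2 -0.98 and -0.95 without passing, and Cd274, which encodes PD-L1, at 0.19 (region shared with Pdcd1lg2).

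Glycolysis genes (0 of 20 called, median log2 ratio -0.17) and housekeeping genes (0 of 20, median 0.11) held no called member. Of 21 genes of oxidative metabolism 1 was lower, Cpt1a, which imports fatty acids into mitochondria, with 3719.9 reads with both cytokines and 7727 with IFNγ.

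The other cytokine libraries place these genes beside IL-4 alone and beside the earlier time. The values in this and the next paragraph come from 39994 regions merged over the 7 cytokine libraries with size factors of their own, so those of the 2 libraries at 4 h differ from the values above. Ccl24 had 5053 reads with both cytokines and 545 with IFNγ at 2 h, and 6311 and 227 at 4 h. Ptgs1 had 1637 reads with both cytokines and 347 with IFNγ at 2 h, and 4656 and 205 at 4 h. The IL-4 libraries held 3585 reads at Ptgs1 at 2 h and 4541 at 4 h, and 3151 and 1574 at Ccl24, and untreated cells held 999.8 and 647 at the same genes. At Ptgs1 the level with both cytokines was thus below that with IL-4 alone at 2 h and near it at 4 h, and at Ccl24 it was above it at both times. Irf4 had 2368 and 1397 reads at 2 h, and 2581 and 497 at 4 h, beside 2033 with IL-4 for 4 h and 1468 in untreated cells. Arg1 had 7002 and 3567 reads at 2 h and 9897 and 2994 at 4 h, below the 13571 and 11261 of IL-4 alone at 2 h and 4 h. Retnla was called with IL-4 alone at 4 h (308 reads) and Chil3 with IL-4 alone at 2 h (222) and 4 h (276), and neither was called with IFNγ present.

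Cholesterol genes had calls at 4 h and none at 2 h, a difference between times that was not tested. Hmgcs1 had 1671 reads with both cytokines and 1794 with IFNγ at 2 h, and 866 and 206 at 4 h, beside 1279.7 with IL-4 for 4 h and 2325 in untreated cells. At 4 h the level with both cytokines therefore lay between IFNγ alone and untreated cells. Idi1 had 934 reads with both cytokines and 889 with IFNγ at 2 h, and 376 and 112 at 4 h, beside 341 with IL-4 for 4 h and 546 in untreated cells. Over the 23 genes the median log2 ratio of adding IL-4 to IFNγ was -0.10 at 2 h, with 0 called, and 0.68 at 4 h, with 10 higher. Against untreated cells it was -1.25 for IFNγ at 4 h, with 12 lower, -0.68 for IL-4 at 4 h, with 5 lower, and -0.49 for both cytokines at 4 h, with 1 lower. These comparisons share libraries, so they are set side by side only. At inflammatory genes, Nos2 had 3522 reads with both cytokines and 4044 with IFNγ at 2 h and 4381 and 12412 at 4 h, beside 407 with IL-4 for 4 h and 1381 in untreated cells. Fpr2 had 214 and 1184 reads at 2 h and 768 and 6977 at 4 h, beside 371 in untreated cells. Cxcl2 had 267 and 598 reads at 2 h and 139 and 1153 at 4 h, and with both cytokines stood below the 1741 of untreated cells. Cx3cr1 was not called with both cytokines at either time, and had 2362 reads with IFNγ at 2 h, 1636 with IFNγ at 4 h and 3628 in untreated cells.

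**Figure D4:**
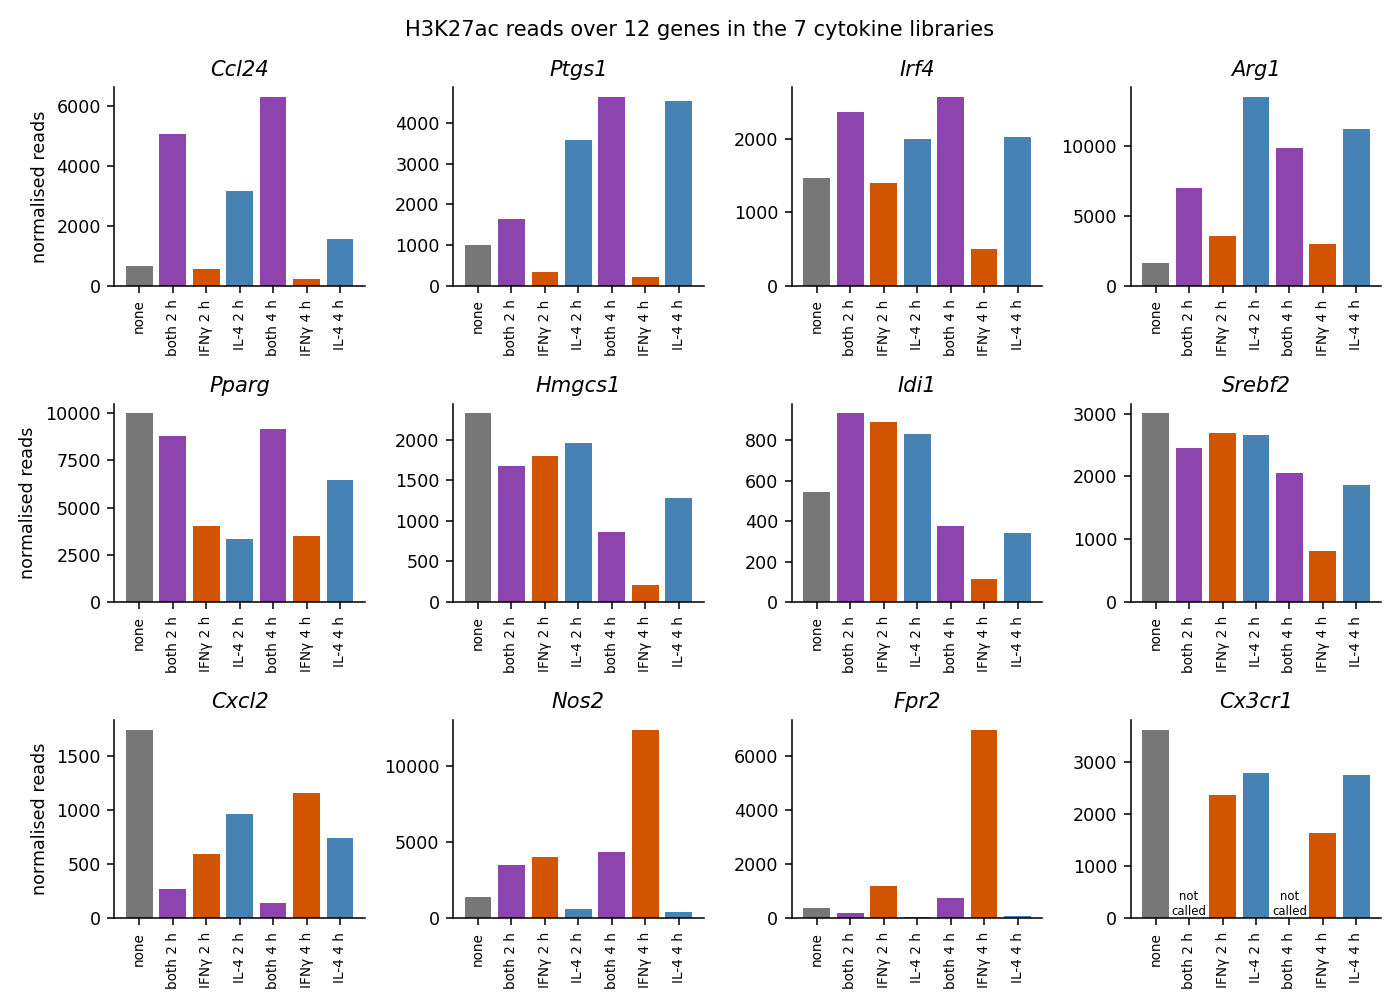
Normalised H3K27ac reads over 12 genes in the 7 cytokine libraries, with 1 bar per library and no error bar because each condition has 1 library. Ccl24 stands highest with both cytokines (6311 reads at 4 h), Hmgcs1 is lowest with IFNγ at 4 h (206 reads), and Cx3cr1 is not called with both cytokines.

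Regions were then chosen on libraries that take no part in the comparison. Regions higher at 2 h when IL-4 was added to IFNγ (1683 regions) had a median log2 ratio of 1.5 at 4 h, and 67.2% were higher at 4 h, against 10.8% of all 32239 regions. Regions lower at 2 h (2358) had a median of -0.97, and 48.6% were lower at 4 h, against 14.1%. Opposite calls were few, with 51 regions higher at 4 h and lower at 2 h and 29 the other way. In the other sense, 39.2% of the 2883 regions called higher at 4 h and 35.7% of the 3214 called lower had the same call at 2 h, against 6.43% and 9.01% of all regions tested. Across 26500 regions the log2 ratios at 4 h and 2 h had a Pearson r of 0.62 and a Spearman rho of 0.57, as a description of regions, which come from the same libraries and are not independent replicates.

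Regions higher with IL-4 alone at 4 h than in untreated cells (3078) had a median log2 ratio of 0.62 when IL-4 was added to IFNγ, and those lower (4010) a median of -0.30, against -0.09 over all 28436 regions. Of 2565 regions higher when IL-4 was added to IFNγ at 4 h, 45.3% were higher and 15.2% lower with IL-4 alone, against 13.9% and 18.2% of all. Of 2435 regions lower, 40.2% were lower and 7.56% higher with IL-4 alone. Across 22690 regions the log2 ratios of adding IL-4 to IFNγ and of IL-4 alone at 4 h had a Pearson r of 0.36 and a Spearman rho of 0.30, given as a description in the same sense. Regions higher with IFNγ in scramble cells (4013) had a median of -0.67 when IL-4 was added to IFNγ, with 36.7% lower, against 15.3% of all. Regions lower with IFNγ in scramble cells (2386) had a median of 0.46, with 29.2% higher, against 10.6% of all. The 183 regions lower with IFNγ in scramble cells and higher with IL-4 alone had a median of 1.71, with 71.0% higher. The 451 regions higher with IFNγ and lower with IL-4 alone had a median of -0.95, with 47.5% lower. Regions higher with each of the single cytokines (746) had a median of -0.10, and regions called with neither (11837) a median of 0.00. Per kb of called length the medians shrank to 0.04 for regions higher with IL-4 alone and 0.05 for regions lower with IFNγ.

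**Figure D5:**
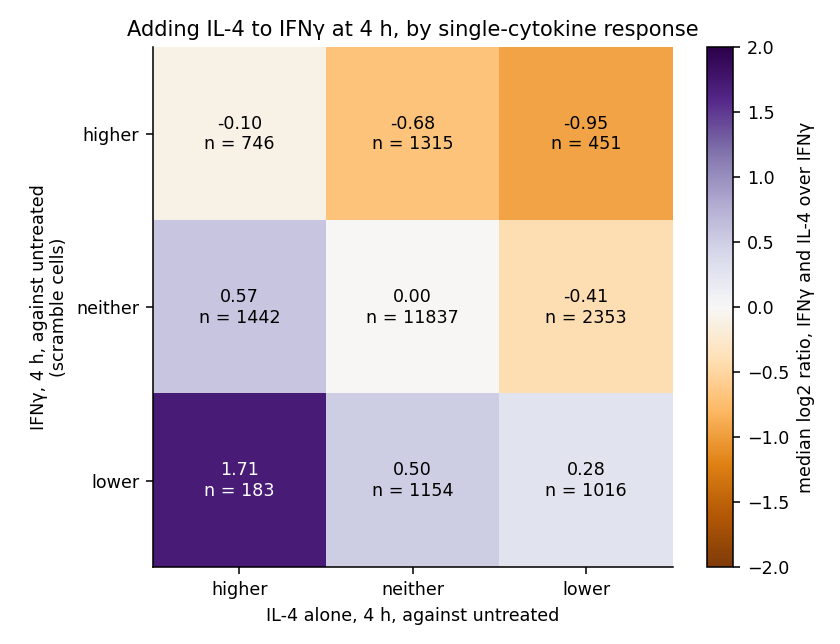
Median log2 ratio of H3K27ac reads, IFNγ and IL-4 over IFNγ at 4 h, for regions split by their call with IFNγ in scramble cells (rows) and with IL-4 alone (columns), each against untreated cells, with the number of regions in each cell. The medians run from 1.71 for regions lower with IFNγ and higher with IL-4 to -0.95 for regions higher with IFNγ and lower with IL-4.

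Over both times together, edgeR's quasi-likelihood test with a term for time and Benjamini-Hochberg adjustment called 0 of 21302 regions (0.00%) for the addition of IL-4. At an unadjusted p under 0.05 it had 2134 regions higher and 2659 lower. DESeq2 on the same counts called 916 higher and 1154 lower at an adjusted p under 0.05 (9.72%). The pairs at 2 h and 4 h are not replicates of a condition, and the fit leaves 1 residual degree of freedom, so neither count says which regions would recur in another experiment.

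Regions away from genes also passed the rule. The highest, chr19:21567801-21589800 on GRCm38, lies 7.51 kb from 1110059E24Rik and had 1535 reads with both cytokines and 62.2 with IFNγ, 24.7-fold higher (19.1 to 32.5). Its called length was 22 and 1.6 kb. The 62.2 reads lie near the 59.1 filled in where IFNγ has no island, so this fold rests on a small island. The next, chr17:87148401-87162000, lies 10.8 kb from Socs5, a suppressor of cytokine signalling family gene, with 1558 and 71.6 reads. The lowest, chr3:131685401-131706600, lies 41.7 kb from Papss1 and had 216 reads with both cytokines and 4693 with IFNγ, 21.7-fold lower (19.0 to 24.96). A pair of regions near Hs3st3a1, chr11:64648801-64665200 and chr11:64607001-64621400, had 119 and 2564 reads and 58.8 and 1151 reads. The 58.8 reads lie below the 62.7 filled in where the library with both cytokines has no island. The nearest gene is given as a position, since the files do not link a region to a target. For the higher genes, the start site lay inside an island for 70.2% of 672 promoters with both cytokines and 51.3% with IFNγ, and for the lower genes for 42.6% and 55.5% of 589, against 80.3% and 79.0% of all tested genes with a promoter in the table.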

How the data were processed

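H3K27ac ChIP-seq of 1 library per condition was analysed from the deposited island files. Alignment with Bowtie2 2.2.6, island calling with SICER 1.1 and the builds mm10 and GRCm38 are named in the submitters' processing notes. The deposited counts are raw ChIP and control reads per island that the authors left unnormalised. The p-value and FDR columns as deposited are the authors' island statistics against a control, and the deposited fold is the ratio of ChIP to scaled control reads. The highest FDR was below 0.01, islands lay on a grid of 200 bp, and the smallest gap was 800 bp. In 29680 of 29680 cases where files share an island's coordinates the control counts did not differ, and 1 control of 14.1 M reads served the series. Totals per library and the control total were computed back from the deposited fold. The smallest control total that fits was used, and a larger one was not excluded.

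Computed here with Python 3.11.15, numpy 2.4.6, pandas 2.3.3, scipy 1.17.1, edgeR 4.0.16 and DESeq2 1.42.0 were the merge at 1 bp overlap, the size factors, and the size rule of 2-fold and 50 reads, tested on simulated data. Region and gene log2 ratios use the filled value where an island is missing. Gene spans are those of 21883 protein-coding genes on GRCm38, and promoter sequences are RefSeq's on GRCm38.p6, present for 17491 of these genes. The genes named are the 12 highest and 12 lowest with at least 200 reads, the 4 strongest called in 1 library alone each way, up to 4 members of each list each way, and a fixed set. Some items that this rule selects are not reported here. Further list members named beside them were chosen after their values were seen. Members and lists were chosen with earlier results of these data known. Alternatives were scaling by depth or TMM, other island sets and merges, reads per kb of called length, subtraction of control reads, read minimums of 20 and 200, and the gene span alone or with 10 kb either side. Per the labels, nothing says how many mice or cultures stand behind a library.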

Additional observations from a re-analysis of the deposited data

Results flagged for a closer look

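At some genes, lipid genes among them, the sign of the log2 ratio for IL-4 differed between cells with and without IFNγ. Only the named genes and the list medians were searched, so this is not shown to be particular to lipid genes. The values are log2 ratios over the 7 cytokine libraries at 4 h, and the difference between the 2 backgrounds was not tested, since each condition has 1 library. Fabp5, a fatty acid binding protein, stood at 1.25 when IL-4 was added to IFNγ and at -1.64 for IL-4 alone against untreated cells. At 2 h its values were 0.23 and -1.65. Atp6v0d2, an alternative activation gene outside that search, stood at 1.21 and -1.04 at 4 h. The median of the cholesterol synthesis list was 0.68 with IFNγ present and -0.68 for IL-4 alone at 4 h, while at 2 h it was -0.10 with IFNγ present and 0.20 for IL-4 alone. The median of the lipid handling list was 0.55 with IFNγ present and -0.52 for IL-4 alone at 4 h, and at 2 h -0.04 and -0.54.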

How the results depend on the processing

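With islands required in both libraries, 2081 regions were higher and 2671 lower, and per kb of called length 283 and 661 regions and 105 and 146 genes. Under the other scalings, island sets, read minimums and gene windows these counts stayed within 1.5 times. With islands merged over the 7 cytokine libraries, an alternative chosen after seeing the data, 875 genes were higher and 763 lower, and with that merge and the size factors over 7 libraries together 737 and 890, while the median log2 ratio of all genes was 0.08 and -0.01. DESeq2 called 916 and 1154 regions where edgeR called 0. Scaling by depth moved every log2 ratio by 0.04, and set medians to -0.58 (IFNγ higher), -0.25 (IL-4 lower), 0.56 (IFNγ lower), 1.60 (2 h higher) and -0.89 (2 h lower). With islands in both libraries they were 0.40 (IL-4 higher), -0.57, 0.36, 1.21 and -0.85 (IFNγ higher and lower, 2 h higher and lower). Per kb of called length they were 0.044 and -0.21 (IL-4 higher and lower), -0.35 and 0.045 (IFNγ) and 0.34 and -0.40 (2 h), and -0.017 for regions lower with both single cytokines, which reversed. With sets cut at 4-fold they were 1.19 and -0.48, -0.75 and 0.89, and 2.54 and -1.46 in the same order. Of 69 called named genes with islands in both libraries 42 fell under 2-fold per kb of called length, and 5 changed sign: Mgll -0.041, Ak8 -0.26, Gtf3c5 0.18, Ifi44 0.029 and H2-Oa 0.025. Among the named genes that were not called, Stat6 and Il12b also changed sign, to -0.22 and 0.12. S100a8 turned to 0.75 with control reads subtracted, Ang2 to -0.21 over the gene span alone and Ccl22 to 0.14 with 10 kb either side. The causes were not tested beyond what each setting changes. Over 9 settings the list medians ranged from 0.21 to 0.94 (alternative activation), 0.10 to 1.18 (cholesterol), 0.21 to 0.71 (lipid), -0.75 to -0.61 (classical), -0.72 to -0.45 (antiviral) and -0.49 to -0.26 (NF-κB), and that of MHC class II kept its sign in 7. No replicate block could be fitted because each condition has 1 library and the labels give no replicate numbers, and no library could be left out for the same reason. The 2 h and 4 h pairs were paired by the term for time in edgeR, and without that term 963 regions were higher and 1050 lower at an unadjusted p under 0.05, in place of 2134 and 2659, with 0 called after adjustment in either fit.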
